A study of Miniopterus schreibersii with 14 samples.

Results

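In limbs of the bent-wing bat Miniopterus schreibersii, messenger RNA was counted over 64618 assembled units, called components. In S15-17 embryos, 100 of them were selected on a higher level in interdigital tissue than in digits. They were chosen by 3 ratios of interdigital to digit score, taken on the thumb side, in the wing and in the foot. The mean score over those 6 libraries had to reach 50, which 12720 components did, and the 100 with the highest value of their smallest log2(score + 1) ratio were kept. A score is the authors' normalized read count, rounded to a whole number.

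The study sequenced messenger RNA from 14 dissected parts, with 1 library for each part. Anterior, middle and posterior parts of the S14 buds came from each limb. The S15-17 digit libraries held digit I of the forelimb, digits II-V of the forelimb and digits I-V of the hindlimb. Beside each stands a library of interdigital tissue: that between I and II (the thumb side), that from II to V (the wing) and that of the foot. Fetal libraries held metacarpals II-V of the forelimb and metatarsals I-V of the hindlimb. The labels name no treatment or genotype, and they do not say whether a library came from 1 embryo or from several. No part has a replicate library, so where parts stand in for replicates the p-values measure the spread between parts.

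Interdigital tissue is the mesenchyme that fills the space between the digit rays of the early hand and foot plate. In most free-toed limbs it is cleared by programmed cell death, with bone morphogenetic protein and retinoic acid signals among the known drivers. In bats the tissue between the long forelimb digits persists and becomes the wing membrane, while the foot and the thumb stay largely free. Digit rays condense into cartilage, which later ossifies in the metacarpals and metatarsals.

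Components carry only assembly numbers in the deposited table. Of these identifiers, 0 matched any of the 22775 genes in the RefSeq table for this species, so no member can be given a gene name, a function or a sequence, and no tissue label could be checked against marker genes. The members are therefore described by identifier and by level. No 2 members share an assembly number.

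The libraries held 4550754 to 7648427 reads, as recovered from the scores. In each S15-17 region the interdigital library was the deeper of the 2, with 6483035 against 4550754 reads on the thumb side, 5563074 against 5474111 in the wing and 6828498 against 5700318 in the foot. The part of this depth difference in the choice of members was not tested. Tissue pieces were sequenced whole, so fewer cells of a type and less RNA per cell cannot be told apart.

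The interdigital excess that defined the list was modest for most members. The highest smallest ratio was 2.13-fold, the median of the list 1.41-fold, and the hundredth member entered at 1.30-fold. Only 3 members reached a log2 ratio of 1 in all 3 regions. The same ranking turned toward digits had its hundredth component at 1.59-fold, and 44 components there reached a log2 ratio of 1 in every region. Of the 12720 components, 9.54% had a higher score in interdigital tissue in all 3 regions and 19.8% had a higher score in digits in all 3. These values chose the members and carry no test.

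The 3 regions contributed alike to the list. The median ratio of the members was 1.62-fold on the thumb side, 1.68-fold in the wing and 1.58-fold in the foot, while the median of all 12720 components lay slightly below 1 in each, at 0.976, 0.965 and 0.956. The smallest of the 3 ratios was that of the thumb side for 38 members, the wing for 29 and the foot for 33. Exact 95% intervals on recovered reads, which cover counting error only, still held a ratio of 1 in at least 1 region for 51 members. The ratios chose the members, so this describes their precision and tests nothing.

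**Figure D1:**
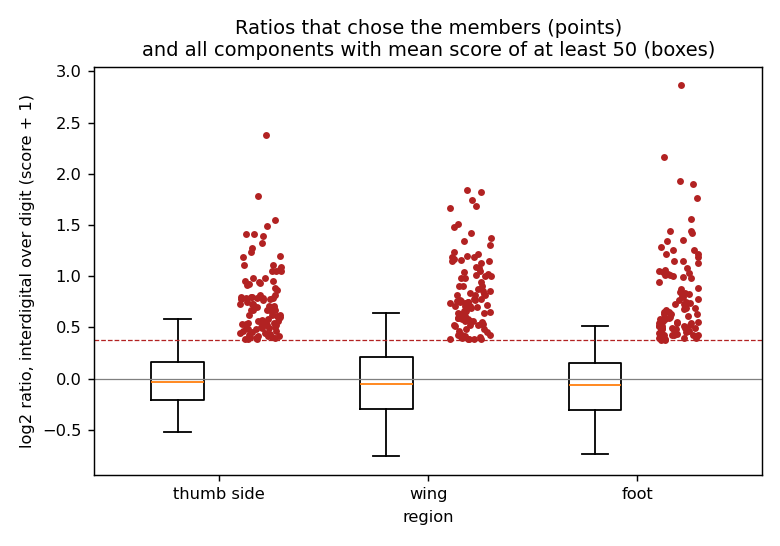
Log2 ratio of interdigital to digit score (score + 1) in the thumb side, wing and foot. Points are the 100 members; boxes give quartiles, median and the 5th to 95th percentile of the 12720 components with a mean of 50 or more, and the dashed line is the score of the hundredth member (0.38). Most points lie between the dashed line and a log2 ratio of 1.

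Component comp11576_c0 led the ranking at a low level. It scored 15 in digit I against 39 in the adjacent interdigital tissue, 14 in digits II-V against 31 between them, and 27 in foot digits against 203 between those. The foot value stands far above the others, and the wing ratio of 2.26 rests on 19 against 8 reads. Component comp2526_c0, the next in rank, was more abundant and more even. Its digit scores were 150, 110 and 158 in thumb, wing and foot, and its interdigital scores were 316, 396 and 351 in the same order. Its ratios from reads were 2.12, 3.62 and 2.23, which chose it and carry no test.

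At the edge of the list, the last member and the first component left out differed little. The last member, comp11095_c0, had digit scores of 77, 52 and 128 and interdigital scores of 123, 150 and 167 in thumb, wing and foot, with a smallest log2 ratio of 0.381. Just outside, comp10609_c0 had 30, 49 and 62 in digits and 62, 64 and 98 in interdigital tissue, with a smallest log2 ratio of 0.379.

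Members were scarcer than other components that passed the minimum. Their mean S15-17 score ran from 50.3 to 8933, with a median of 124, against a median of 306 over all 12720. A mean under 100 was found for 37 members and for 18.1% of the 12720. Scarce components have wider counting error in a ratio, and the part of this in the ranking was not tested.

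**Figure D2:**
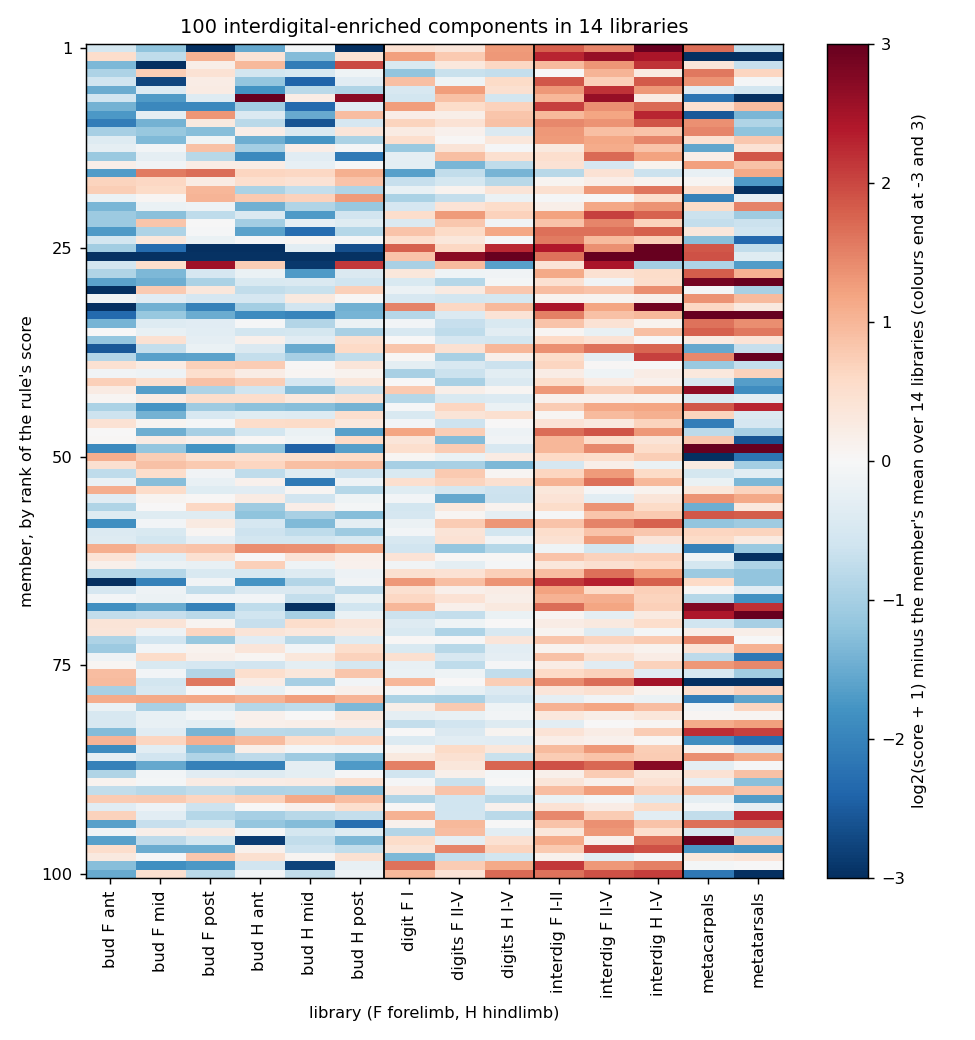
Scores of the 100 members (rows, by rank) in the 14 libraries (columns; black lines part S14 buds, S15-17 digits, S15-17 interdigital tissue and fetal bones), as log2(score + 1) minus the member's mean. Each interdigital column exceeds its matched digit column in every row, as the ranking required, while the bud and fetal columns, which the ranking did not use, differ from row to row.

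No region of the interdigital tissue dominated. The highest of the 3 interdigital scores was that of the foot for 37 members, the wing tissue between digits II and V for 36 and the thumb side for 27, beside 41.4%, 28.7% and 29.9% of the 12720 components. The wing tissue scored above the foot tissue in 48 members (46.8% of the 12720) and above the thumb side in 52 (47.3%). For the comparison of wing with foot and thumb side, the members lay near the background.

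Single members did favour 1 region. Component comp3911_c0 had the widest excess of wing interdigital tissue, with 973 there, 238 on the thumb side and 87 in the foot, and its digit scores followed the same order of wing, thumb and foot at 348, 90 and 57. Component comp11501_c0 had the widest excess on the thumb side, with interdigital scores of 367, 230 and 108 in thumb, wing and foot and digit scores of 280, 90 and 77. In both, the preference for a region was shared by digit and interdigital tissue. In the foot the widest excess was that of comp11576_c0, given above. Each of these is 1 library against 1 and has no replicate check.

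The S14 buds, cut before digits are separate, show whether the later difference went with a high interdigital or a low digit level. All 3 interdigital libraries scored above all 6 buds in 53 members, against 10.1% of the 12720 components. For 26 of these, the 3 digit libraries also lay above every bud (7.68% of the 12720 for both tissues), so that both tissues were above the bud with interdigital tissue further up. In the other 27 only the interdigital libraries did (2.43%). All 3 digit libraries lay below all 6 buds in 13 members (21.8%), and in 6 of these the interdigital libraries did too (17.2%). The remaining 34 members had neither all interdigital libraries above every bud nor all digit libraries below every bud (68.1%). The members were chosen for high interdigital and low digit scores, so these counts describe the list and nothing is read from them against the background.

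The median score of the members was 65 to 90 in the 6 buds, 90 to 93 in the 3 digit libraries and 159 to 162.5 in the 3 interdigital libraries. In the fetal bones it was 151.5 in metacarpals and 129.5 in metatarsals. Median log2 differences from the bud mean were 1.18 for interdigital tissue and 0.44 for digits over the members, and -0.11 and -0.04 over the 12720 components.

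By the log2 difference between the lowest interdigital and the highest bud library, comp18807_c0 had the widest gap of the members, at 4.58 on the log2(score + 1) scale. It was at 0 in all 6 buds and scored 23, 104 and 118 in thumb, wing and foot interdigital tissue, and 13, 50 and 77 in the matched digits. A floor of 3 reads over the 6 buds makes its interdigital mean of 81.7 at least 89.3-fold higher. Component comp2054_c0 followed by that measure, at a log2 difference of 2.03, with buds at 13, 31, 24, 18, 17 and 26 (forelimb anterior, middle and posterior, then hindlimb), digits at 38, 52 and 93 and interdigital tissue at 202, 130 and 137. All 6 of its S15-17 scores lay above every bud.

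Other members were high in the bud and lower in both later tissues. That the drop was smaller between the digits follows from the ranking. The examples named here have the widest gap of the lowest bud over the highest digit library. Component comp8013_c1 scored 632 to 742 in the 6 buds, 160, 158 and 207 in digits and 256, 287 and 276 in interdigital tissue. Component comp3782_c1 scored 205 to 283 in the buds, 73, 75 and 57 in digits and 103, 167 and 128 in interdigital tissue. No digit or interdigital score of either reached its bud range.

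**Figure D3:**
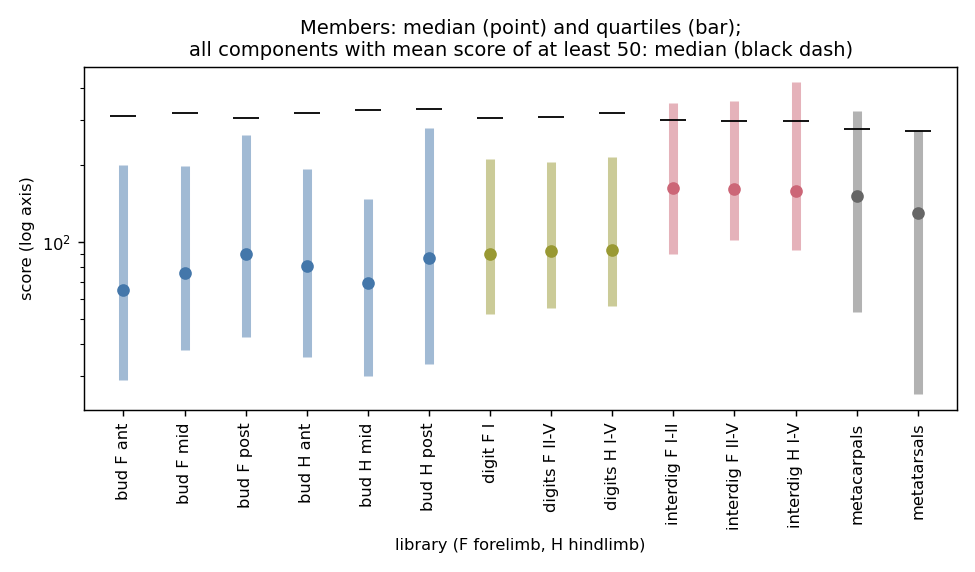
Score of the members in each library on a log axis (points, median; bars, lower to upper quartile), with the median of the 12720 components with a mean of 50 or more as a black dash. Member medians are 159 to 162.5 in interdigital libraries, 65 to 93 in buds and digits, 151.5 in metacarpals and 129.5 in metatarsals. Every member median is below the dash.

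Within the S14 buds, several members were low in the middle part and high at both sides, in forelimb and hindlimb alike. In 6 members the middle lay more than 2-fold below the mean log2 of the anterior and posterior parts in both limbs. Over the 12720 components there were 28 of this kind, 0.22%, the 6 members included. The opposite, a middle more than 2-fold above in both limbs, was met by 0 members and 22 components (0.173%). This threshold was chosen after the values were seen.

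Component comp7498_c0 showed the widest difference of this kind. It scored 36 in anterior, 4 in middle and 106 in posterior forelimb bud, and 184, 21 and 375 in the hindlimb bud. On the log2(score + 1) scale its middle was 12.6-fold lower than the outer parts in the forelimb and 11.99-fold lower in the hindlimb. The forelimb middle score of 4 is few reads. With a pseudocount of 5 the log2 difference over both limbs moved from -3.62 to -3.14. Later it scored 182, 235 and 426 in interdigital tissue and 68, 117 and 144 in digits of thumb, wing and foot. The 2 middle scores are the lowest of its 14 values.

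Component comp2526_c0 scored 92, 37 and 133 from anterior to posterior in the forelimb bud and 85, 25 and 86 in the hindlimb bud. The middle parts again lay below all 4 outer parts. Component comp4463_c0 scored 150, 69 and 174 in the forelimb bud and 1825, 267 and 1492 in the hindlimb bud, where the middle was 6.16-fold lower. Component comp452_c0 had 187, 66 and 289 in the forelimb bud and 112, 48 and 91 in the hindlimb bud. A component of the same assembly number outside the list, comp452_c1, had no low middle. Its log2 differences of middle minus outer parts were 0.28 in the forelimb and 0.44 in the hindlimb.

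The remaining 2 of the 6, named after their values were seen, were more abundant. Component comp3043_c0 scored 250, 55 and 440 in the forelimb bud and 168, 71 and 299 in the hindlimb bud, and 1394, 626 and 1358 in later interdigital tissue. Component comp1049_c0 scored 558, 263 and 548 in the forelimb bud and 699, 146 and 573 in the hindlimb bud, and 1323, 2018 and 1254 in later interdigital tissue. In both, no middle score reached an outer one.

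In limma with limb as block, no member was called between the middle and outer parts, nor was any component of the table (0% of 20429 tested). With 2 middle libraries the smallest adjusted p over all components was 0.811. For comp7498_c0 the log2 difference was -3.62 (SE 0.52, adjusted p = 0.811), and for comp2526_c0 it was -1.64 (SE 0.23, adjusted p = 0.811). Before adjustment, p was under 0.05 for 16 members, 14 of them lower in the middle, against 4.8% of the 12720 components in either direction and 1.87% in that one. At the other end, comp11576_c0 had a log2 difference of 1.64 (SE 1.04), but its bud scores run only from 0 to 10. All 4 outer parts scored above both middle parts in 13 members (4.85% of the 12720), and the reverse held for 3 (6.16%).

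**Figure D4:**
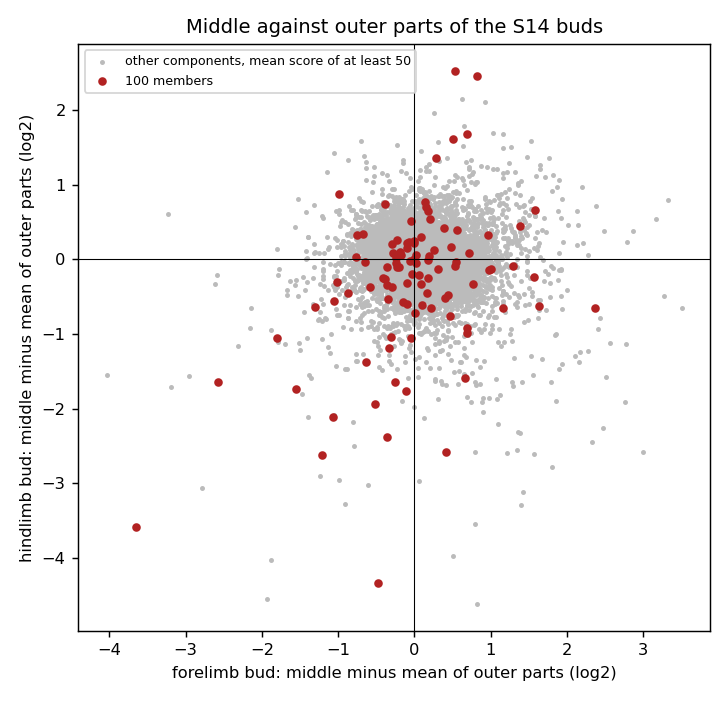
Middle part minus the mean of anterior and posterior parts, in log2(score + 1), for the forelimb bud (horizontal) and the hindlimb bud (vertical). Red points are the 100 members and grey points the other components with a mean of 50 or more; 6 members lie below -1 on both axes and 0 lie above 1 on both.

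Between the anterior and posterior parts of the buds, posterior scores were higher in both limbs for 38 members (28.3% of the 12720) and anterior scores for 16 (28.1%). On the log2(score + 1) scale comp12612_c0 had the widest posterior excess. It scored 0 in anterior and 18 in posterior forelimb bud and 5 and 18 in the hindlimb bud. These are few reads as well, and its log2 difference of anterior minus posterior shrank from -2.96 to -1.70 with a pseudocount of 5. Component comp3911_c0, the wing-biased member, scored 121 in anterior and 1048 in posterior forelimb bud and 298 and 778 in the hindlimb bud. The widest anterior excess, in comp11576_c0, was between scores of 7 and 0 in the forelimb and 3 and 0 in the hindlimb, which are too few reads to carry a direction.

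In limma with limb as block, 0 members and 0% of the 20429 components were called along this axis, with a smallest adjusted p of 0.708. The log2 difference of anterior minus posterior was -2.96 for comp12612_c0 (SE 0.80, adjusted p = 0.708) and 2.50 for comp11576_c0 (SE 0.34, adjusted p = 0.708). Before adjustment, p was under 0.05 for 18 members, 14 of them higher in posterior parts, against 5.25% of the 12720 components and 3.17% in that direction. limma voom on recovered reads at the authors' scale called 11 members, 9 higher in posterior parts, and 1.25% of the table. Scaled to library totals, voom called 0 members and 0.0441% of the table, so that the calls turned on the scaling.

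The fetal bones, which the ranking did not use either, split the members. Of the 100, 38 rose and 25 fell between the S14 buds and the fetal metapodials, as the metacarpals and metatarsals are jointly called. Over all 20429 components tested, 66.8% were called, so the total of 63 members lies near the background. By direction, 22.8% of the 12720 components were called higher and 47.9% lower. The median log2 difference of the members was 0.43, against -0.41 over the 12720. Over all 20429 it was -0.23 on the authors' scale, -0.04 after upper-quartile scaling and -0.48 after centring libraries on their median, and the members' median moved with it to 0.62 and 0.18.

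The direction went with the level of the member, in a split at a mean S15-17 score of 200 that was added after the values were seen. Among the 64 members with a mean score of 50 to 200, 32 rose and 11 fell, against 30.4% and 34.4% of the 4740 components in that range, and their median difference was 1.12 against -0.09. Among the 36 members at 200 or more, 6 rose and 14 fell, against 18.3% and 55.9% of 7980 components, with medians of -0.44 and -0.54. Ranking only components that reached a mean of 200 gave 100 components with a median of -0.62, the opposite sign of the list described here. Without the metatarsals 31 members rose and 13 fell, and without the metacarpals 31 rose and 24 fell, while the share called over all 20429 components dropped to 54.4% and 56.8%.

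The members with the widest rise were low in the buds. Component comp2054_c0 had fetal scores of 1021 (metacarpals) and 1026 (metatarsals), far over its bud range of 13 to 31 and its 130 to 202 in interdigital tissue. The limma log2 rise was 5.56 (SE 0.33, adjusted p = 1.3e-06, and 9.0e-08 to 0.00039 over the alternatives). Component comp12369_c0 scored 339 and 357 in the fetal bones, 6 to 16 in the buds, 26 to 63 in digits and 54 to 102 in interdigital tissue. It rose by 4.90 (SE 0.38, limma adjusted p = 5.2e-06, and 3.7e-07 to 0.00087 over the alternatives). For both, the fetal scores lay above all 12 earlier libraries, so that interdigital tissue was not the place of their highest level.

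The members with the widest fall scored low in the fetal bones. Component comp2526_c0, among the leading interdigital members, scored 1 in metacarpals and 0 in metatarsals, after 25 to 133 in the buds and 110 to 396 at S15-17. In limma the log2 difference was -5.57 (SE 0.59, adjusted p = 3.0e-05, and 1.5e-05 to 0.021 over the alternatives). Component comp452_c0 scored 8 and 2 in the fetal bones, after 48 to 289 in the buds and 97 to 549 at S15-17, a log2 difference of -4.42 (SE 0.53, limma adjusted p = 6.4e-05, and 1.9e-05 to 0.016 over the alternatives). Both also belong to the 6 members that were low in the middle of the buds, but those 6 had no shared fetal direction. In limma comp4463_c0 fell too (log2 difference -3.97, adjusted p = 0.0090), but that call was lost in some settings. By contrast, comp3043_c0 rose (1.82, limma adjusted p = 0.0498), at the edge of the threshold. Its metatarsal score of 363 lay within its bud range of 55 to 440. Neither comp7498_c0 (0.60) nor comp1049_c0 (-0.14) was called. The bud-enriched comp8013_c1 fell as well, to 73 and 103, a log2 difference of -2.95 (SE 0.15, limma adjusted p = 5.6e-07).

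Against the S15-17 parts, both fetal libraries scored above all 6 in 22 members (19.7% of the 12720) and below all 6 in 28 (42.3%). For those 22 members the highest level among the later parts was in the fetal bones and not in interdigital tissue. The fetal bones are another dissected part at another stage, and the effects of stage and of dissection cannot be told apart.

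**Figure D5:**
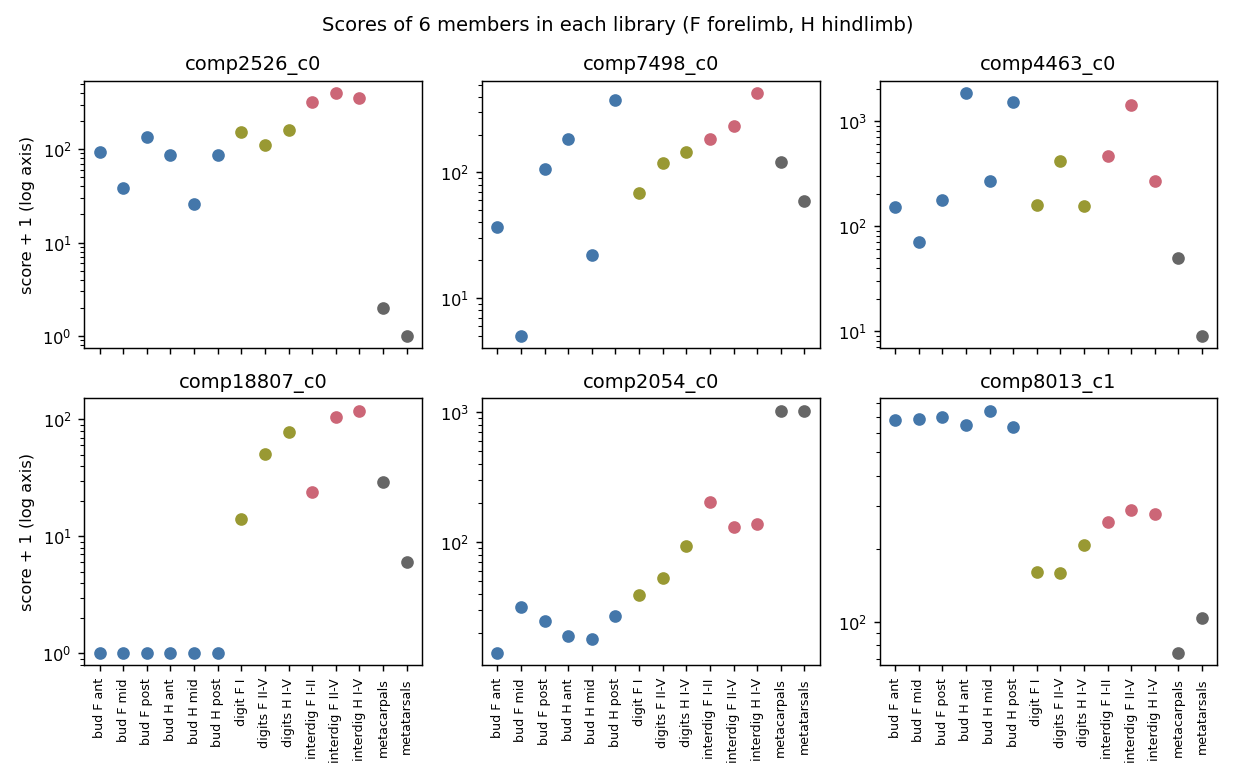
Score + 1 of 6 members in each of the 14 libraries, on log axes that differ between panels (blue, S14 buds; olive, S15-17 digits; red, S15-17 interdigital tissue; grey, fetal bones). Panels in the upper row show low middle buds; comp18807_c0 is at 0 in the buds, comp2054_c0 is highest in the fetal bones at 1021 and 1026, and comp8013_c1 is highest in the buds.

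Metacarpals and metatarsals differed widely in some members. Metacarpals scored over 4-fold higher in 11 members, against 1.53% of the 12720 components, and metatarsals in 2, against 1.04%. These shares are not matched for level, and the members were scarcer, with a median S15-17 mean of 124 against 306. Metatarsal scores of the 11 ran from 3 in comp7994_c1 to 76 in comp5964_c1, and most were low. Wide ratios arise more easily at low scores, and the part of level in the count of 11 was not tested. Component comp7545_c0 scored 276 in metacarpals and 11 in metatarsals, a ratio of 24.5 from reads (95% interval 11.7 to 61.7). It had scored 13 to 51 in the buds and 73 to 108 in interdigital tissue. In the opposite direction comp11501_c0, the thumb-biased member, scored 80 in metacarpals and 648 in metatarsals, a ratio of 0.123 (0.0928 to 0.161). These are comparisons of 1 library with 1, and the intervals cover counting error only.

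Forelimb and hindlimb were compared over the 4 matched pairs outside the ranking, 3 from the buds and 1 from the fetal bones. Component comp7994_c1 had the widest forelimb excess. It scored 92, 82 and 111 in anterior, middle and posterior forelimb bud and 77 in metacarpals, and 28, 33 and 29 in the hindlimb bud and 3 in metatarsals. Every forelimb score lay above every hindlimb score. At S15-17 this was no longer so, with 77 and 137 in forelimb interdigital tissue and 169 in the foot. The widest hindlimb excess was in comp4463_c0, whose buds are given above, but its fetal scores of 49 in metacarpals and 8 in metatarsals went the other way. So did its wing scores at S15-17, with 1399 against 268 in foot interdigital tissue and 416 against 154 in foot digits.

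In limma with the matched part as block, 0 members were called and 0.049% of the 20429 components were. The log2 difference of forelimb minus hindlimb was 2.29 for comp7994_c1 (SE 0.48, adjusted p = 0.38) and -1.54 for comp4463_c0 (SE 0.87, adjusted p = 0.644). Unadjusted p lay under 0.05 for 14 members, against 9.55% of the 12720 components. The forelimb scored higher in all 4 pairs for 9 members (7.23%) and the hindlimb for 9 (10.6%), which is near the background. Outside the libraries that chose them, the members thus showed no shared limb preference that this design could call.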

How the data were processed

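The deposited table gives scores by component and library. These scores are the authors' normalized counts rounded to whole numbers, as the low scores of each library fall on rounded multiples of 1 step. CASAVA 1.8, RSEM and edgeR are named in the submitters' processing notes without a role; assembly and normalization are not given in the sources used here. Reads were recovered by dividing by the step, fitted on scores up to 2000; 99.98% to 100% of nonzero scores per library equalled a whole number of steps after rounding. No negative binomial model was fitted.

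Tests were fitted on log2(score + 1) by limma 3.58.1 (R 4.3.3), trended for mean expression; the scale understates changes of low components. The filter was a mean of 10 or more across the 14 libraries, which 20429 components (99.0% of all scores) and all 100 members passed. Adjusted p-values are Benjamini-Hochberg over all kept components, two-sided, called under 0.05. Fetal metapodials were set against buds with limb as covariate, and the other tests had a block. Tests were also run on simulated counts with set changes. Those counts held no differences between parts of a group, so they cannot show how the tests behave where unlike parts stand in for replicates. Python 3.11.15 was used otherwise.

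Named are the 2 highest members, ranks 100 and 101, and the extremes of each comparison, at most 2 per direction. Alternatives were pseudocounts of 0.25 and 5, no filter, 2 other scalings, robust shrinkage, voom, no block, left-out libraries and other forms of the ranking. Voom on library totals, the split at a mean of 200 and the count of low middle buds with its alternatives were added after the values were seen. The members and comparisons were chosen with earlier results of these data known.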

Additional observations from a re-analysis of the deposited data

Results flagged for a closer look

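Component comp4463_c0 scored lower in forelimb than in hindlimb in the anterior, middle and posterior bud pairs, while metacarpals scored above metatarsals, 49 against 8, a log2 difference of 2.47. It stands here because the limb difference of the fetal pair had the opposite sign to that of all 3 bud pairs. The wing already scored above the foot at S15-17. Its interdigital scores were 457, 1399 and 268 in thumb, wing and foot, and its digit scores 156, 416 and 154. The difference between the periods was not tested over these 4 pairs, and the fetal pair is 1 library against 1. Read counts give the metacarpals a ratio of 6.09 to the metatarsals (95% interval 2.39 to 19.8, counting error only).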

How the results depend on the processing

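The count of members called between fetal bones and buds, 63, was 57 to 66 under other pseudocounts, filters, scalings, shrinkage, voom and no limb covariate, and 44 to 66 with 1 library left out. Of the 63, 40 stayed called without the metatarsals and 52 without the metacarpals. The members' median difference of 0.43 ran from 0.29 to 0.52 with 1 library left out. It was -0.62 when the ranking required a mean score of 200 and -0.073 for the 200 highest components. Interdigital tissue above every bud held for 53 members, and for 29 with the minimum of 200. Digits below every bud held for 13, and for 32 with that minimum and 8 when ranked by the mean of the 3 ratios. The ranking with a minimum of 200 shared 36 members, the mean of ratios 57, a pseudocount of 5 shared 99 and upper-quartile scaling 94. Along the anterior to posterior axis voom at the authors' scale gave 11 members, and every other setting run gave 0. Limb and middle-to-outer counts were 0 in every setting run, from 0 to 0 with 1 pair or library left out. The 6 members low in the middle bud were 5 to 9 with 1 outer library left out and 5 or 6 under other pseudocounts and scalings. All 142 alternatives of the 10 tested values of named components kept direction and side of the threshold. Those 10 are the extremes of each test, and those outside the fetal test were called in no setting. Other named fetal values were less stable. Components comp4463_c0, comp7994_c1, comp11095_c0 and comp3782_c1 were called between fetal bones and buds, but each lost that call in some settings. The anterior to posterior fit leaves no residual spread without 1 pair, so none was left out there. The labels carry no replicate numbers, so parts were matched by anatomy alone, and leaving out the block changed no count of called members between limbs or bud parts.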
